A study of Mus musculus with 9 samples.

Results

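The interferon response genes described here are a list of 42 genes: the 2 chains of the type I interferon receptor, the factors that relay its signal, sensors of foreign nucleic acid, and the antiviral, GTPase, ubiquitin-like and antigen-processing genes that the signal switches on. They were chosen by symbol, and a gene was measured where the array's annotation gives a probe set that gene alone. Of the 42, 37 were measured in this way, among 19938 genes in all. Isg15, Gbp2, Igtp and Irgm2 lie only on probe sets shared between genes and Ifi44 was not matched, so these 5 have no value here. Irf1 has 2 probe sets, of which the brighter was used. The series holds 9 mouse arrays in 3 groups of 3. The AS lines are 3 separately derived angiosarcoma cell lines, grown from liver endothelium of tumour-bearing Notch1 knockout mice and kept in culture for a long time. Angiosarcoma is a cancer of the cells that line vessels. The KO livers come from MxCre Notch1 lox/lox mice and the WT livers from Notch1 lox/lox mice without the Cre, 1 animal for each array.

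The background of the mice was C57Bl/6, and both liver groups received 300 µg of poly(I:C) on days 0, 3 and 6, starting at 4 weeks of age. Poly(I:C) is a synthetic double-stranded RNA that cells sense as a virus. MxCre places Cre under the promoter of the interferon-inducible gene Mx1, so the injections switch on the recombinase and remove the exon for the Notch1 signal peptide. The WT livers had the same injections but no Cre, and what the Cre does and what the loss of Notch1 does cannot be told apart. None of the 9 arrays stands for mice without poly(I:C), so the response to the injections themselves was not measured, and the labels do not give the time between the last injection and collection of the liver. The extraction protocol names PHH, left unexplained, so it is not settled if RNA came from whole liver or from some of its cells.

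Type I interferons bind a receptor made of the IFNAR1 and IFNAR2 chains, whose kinases activate STAT2. With IRF9 it takes part in a complex that binds interferon-stimulated response elements, DNA sites with repeated GAAA cores, and switches on many antiviral genes. The response also feeds on itself, since it induces IRF7 and the sensors that detect viral RNA, and it is dampened by USP18, which acts at the receptor. In liver, hepatocytes, sinusoidal endothelium and Kupffer cells all respond.

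To show this sequence element in the genes the results turn on, the 250 bases before the start of the gene are given 5′ to 3′ on the gene's strand, from RefSeq on build GRCm38.p6. Ifit1, Ifit3, Rsad2 and Oas3 are those of the genes that differed most between the AS lines whose window holds the element, Cxcl10 had the lowest log2 fold change of the AS lines against the KO livers, and Ifnar1 is a receptor chain. Capitals mark each match to GAAANNGAAA on either strand, so that a match on the opposite strand shows as the reverse complement.

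Ifit1 (chr19:34640639-34640888, plus strand): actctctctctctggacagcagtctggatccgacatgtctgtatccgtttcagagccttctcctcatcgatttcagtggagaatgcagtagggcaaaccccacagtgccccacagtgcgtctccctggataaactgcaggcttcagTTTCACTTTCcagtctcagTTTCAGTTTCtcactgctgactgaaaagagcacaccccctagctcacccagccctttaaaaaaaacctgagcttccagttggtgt

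Ifit3 (chr19:34583279-34583528, plus strand): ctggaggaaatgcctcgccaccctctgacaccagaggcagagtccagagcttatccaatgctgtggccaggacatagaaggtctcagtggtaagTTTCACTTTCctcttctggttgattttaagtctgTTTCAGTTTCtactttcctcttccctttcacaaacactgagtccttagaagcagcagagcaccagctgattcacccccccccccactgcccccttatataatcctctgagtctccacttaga

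Rsad2 (chr12:26456453-26456702, minus strand): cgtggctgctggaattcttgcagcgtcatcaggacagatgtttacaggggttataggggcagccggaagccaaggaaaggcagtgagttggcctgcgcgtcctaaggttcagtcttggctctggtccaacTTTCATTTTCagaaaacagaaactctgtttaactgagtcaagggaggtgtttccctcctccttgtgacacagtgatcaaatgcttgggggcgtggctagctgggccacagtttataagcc

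Oas3 (chr5:120777660-120777909, minus strand): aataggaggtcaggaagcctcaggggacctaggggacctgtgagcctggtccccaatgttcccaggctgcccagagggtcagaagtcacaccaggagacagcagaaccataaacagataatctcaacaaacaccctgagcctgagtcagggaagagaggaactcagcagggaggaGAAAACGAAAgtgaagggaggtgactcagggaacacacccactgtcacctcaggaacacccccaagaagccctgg

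Cxcl10 (chr5:92348890-92349139, minus strand): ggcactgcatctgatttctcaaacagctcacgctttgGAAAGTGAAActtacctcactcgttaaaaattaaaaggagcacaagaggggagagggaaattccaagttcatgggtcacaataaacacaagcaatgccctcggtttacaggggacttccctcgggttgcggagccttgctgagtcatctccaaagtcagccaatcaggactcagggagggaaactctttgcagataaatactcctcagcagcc

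Ifnar1 (chr16:91484965-91485214, plus strand): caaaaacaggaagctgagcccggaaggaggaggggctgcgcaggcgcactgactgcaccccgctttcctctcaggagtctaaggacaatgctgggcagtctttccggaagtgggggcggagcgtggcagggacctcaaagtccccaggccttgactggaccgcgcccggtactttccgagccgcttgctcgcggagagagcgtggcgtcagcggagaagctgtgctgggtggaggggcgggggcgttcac

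Ifit1 and Ifit3 each had 2 matches in these bases, Rsad2, Oas3 and Cxcl10 had 1 and Ifnar1 had 0. A window from RefSeq, of 250 bases before and 50 after the start, was found for 26 of the 37 measured genes. At least 1 of its windows held GAAANNGAAA for 11 of these 26 genes, against 3.99% of all 27025 genes with a window. The other interferon motif searched, TTCNNNGAA, the core of the gamma-activated site, was found for 8 of the 26 genes, against 9.55% of all genes. The motifs were searched on both strands, and overlapping matches were counted separately. Among the 10 measured genes that spanned more than 2 log2 units between the AS lines, 6 had a window and 4 of these held GAAANNGAAA, against 7 of 20 among the other 27 genes. The windows of Tap1 and Psmb9, which lie head to head on chromosome 17, shared 275 bases, and neither held GAAANNGAAA. A match is a description of these letters and not a measured binding site.

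Values are the deposited log2 expression after robust multi-array averaging (RMA), which forces the arrays to about the same distribution and so hides any shift shared by most genes. Where 3 values stand in a row, they are replicates 1, 2 and 3. Replicates are single animals or lines, and 3 arrays in a group limit the precision of every value. As a check of the labels, Notch1 stood at 7.84, 8.75 and 8.52 in the KO livers and at 11.69, 11.02 and 11.71 in the WT livers, where the groups did not overlap (log2 fold change -3.10, SE 0.302, limma adjusted p = 0.0995). The livers differed in their cell markers. The mean of 20 hepatocyte genes was 10.59, 12.60 and 9.28 in the KO livers and 11.44, 12.51 and 12.48 in the WT livers, and that of 11 T and NK cell genes was 6.65, 6.70 and 6.85 in the KO livers and 6.53, 8.53 and 8.44 in the WT livers. KO liver 3 alone had signal of the Y-linked gene Eif2s3y, at 8.66 against at most 4.02 in the other 5 livers. The AS lines did not carry the defining marker of endothelium: Cdh5, the cadherin of endothelial junctions, was at 5.47, 5.66 and 5.45 in the lines and at or above 12.72 in all 6 livers.

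**Figure D1:**
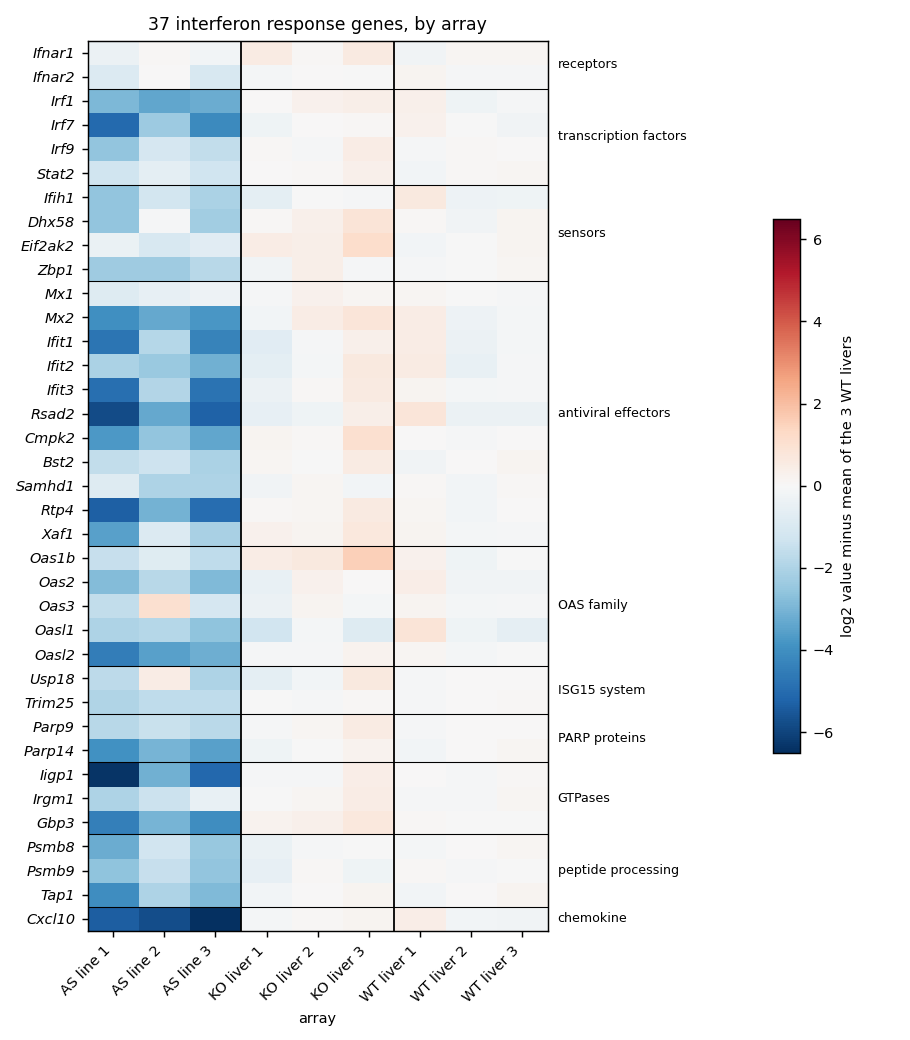
Each row is 1 of the 37 measured interferon response genes, ordered by role, and each column 1 array (3 AS lines, 3 KO livers, 3 WT livers). Colour gives the log2 value minus the mean of the 3 WT livers. The livers differ little in shade, and AS lines 1 and 3 are darker than AS line 2 in most rows. In AS line 2, Oas3 and Usp18 are above the WT mean, and Ifnar1 and Ifnar2 are barely above it.

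KO livers were set against WT livers to ask if the interferon response to the same injections differs with loss of Notch1. The genes stood at nearly the same level in both. Their median log2 fold change was 0.04, with 15 of 37 negative, against -0.00 over all genes. Leaving out 1 liver gave medians between -0.031 (without KO liver 3) and 0.21 (without KO liver 1). Among these fits the sign changed only without KO liver 3. Single genes lay between -0.73 for Oasl1 and 0.87 for Oas1b. In limma, 0 of the 37 passed an adjusted p of 0.05, and the share over all 19938 genes was 0%. At an unadjusted p under 0.05 there were 3 of 37, against 22.5% of all genes, and in 4 of 37 the groups did not overlap, against 30.3% of all genes. These shares of the members lie below the background. The 4 genes with no overlap, all higher in KO livers, were Eif2ak2, Cmpk2, Oas1b and Gbp3.

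Oas1b, a 2'-5'-oligoadenylate synthetase that C57BL/6 and many other laboratory strains encode as a truncated protein, was at 8.06, 8.22 and 9.13 in the KO livers and at 7.90, 7.31 and 7.60 in the WT livers. Every KO liver was above every WT liver, KO liver 1 only narrowly so, and KO liver 3 was the highest. The log2 fold change was 0.87 (SE 0.318, limma adjusted p = 0.197), and it was 0.54 without KO liver 3. Eif2ak2, the RNA-activated kinase PKR that stops translation, was at 9.38, 9.25 and 10.05 in the KO livers and at 8.71, 8.88 and 9.09 in the WT livers. KO liver 3 again stood above the other 2, and the difference of 0.67 (SE 0.234) had a limma adjusted p of 0.185, and was 0.42 without that liver. Gbp3, a guanylate-binding GTPase, was at 9.96, 10.08 and 10.45 in the KO livers and at 9.82, 9.72 and 9.72 in the WT livers, with a difference of 0.41 (SE 0.138, limma adjusted p = 0.175) that was 0.27 without KO liver 3. Cmpk2, a mitochondrial nucleotide kinase next to Rsad2 in the genome, was at 9.23, 9.16 and 10.12 in the KO livers and at 9.12, 9.0004 and 9.11 in the WT livers. KO livers 1 and 2 stood barely above the WT livers, and the difference of 0.43 (SE 0.268, limma adjusted p = 0.377) was 0.12 without KO liver 3.

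In the remaining genes the genotypes overlapped, among them genes bright in all 6 livers. Rsad2, viperin, an enzyme that makes a chain-terminating nucleotide, was at 10.85, 11.11 and 11.79 in the KO livers and at 12.19, 11.01 and 11.00 in the WT livers. Its highest value was thus in WT liver 1 and its lowest in KO liver 1, with a difference of -0.15 (95% interval -1.17 to 0.87). Cxcl10, a chemokine that draws activated T cells, was at 13.45, 13.64 and 13.74 in the KO livers and at 13.99, 13.40 and 13.34 in the WT livers, a difference of 0.04 (95% interval -0.45 to 0.52). Irf7, the factor that amplifies interferon production, was at 10.58, 10.92 and 10.94 in the KO livers and at 11.13, 10.83 and 10.66 in the WT livers, and differed by -0.06 (95% interval -0.46 to 0.34). Trim25, a ubiquitin ligase that assists the RNA sensor RIG-I, had the narrowest interval, from -0.18 to 0.17. The interval of Oasl1 was the widest, from -1.86 to 0.40, and that of Oas1b ran from 0.076 to 1.66, so the precision differed greatly between genes.

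**Figure D2:**
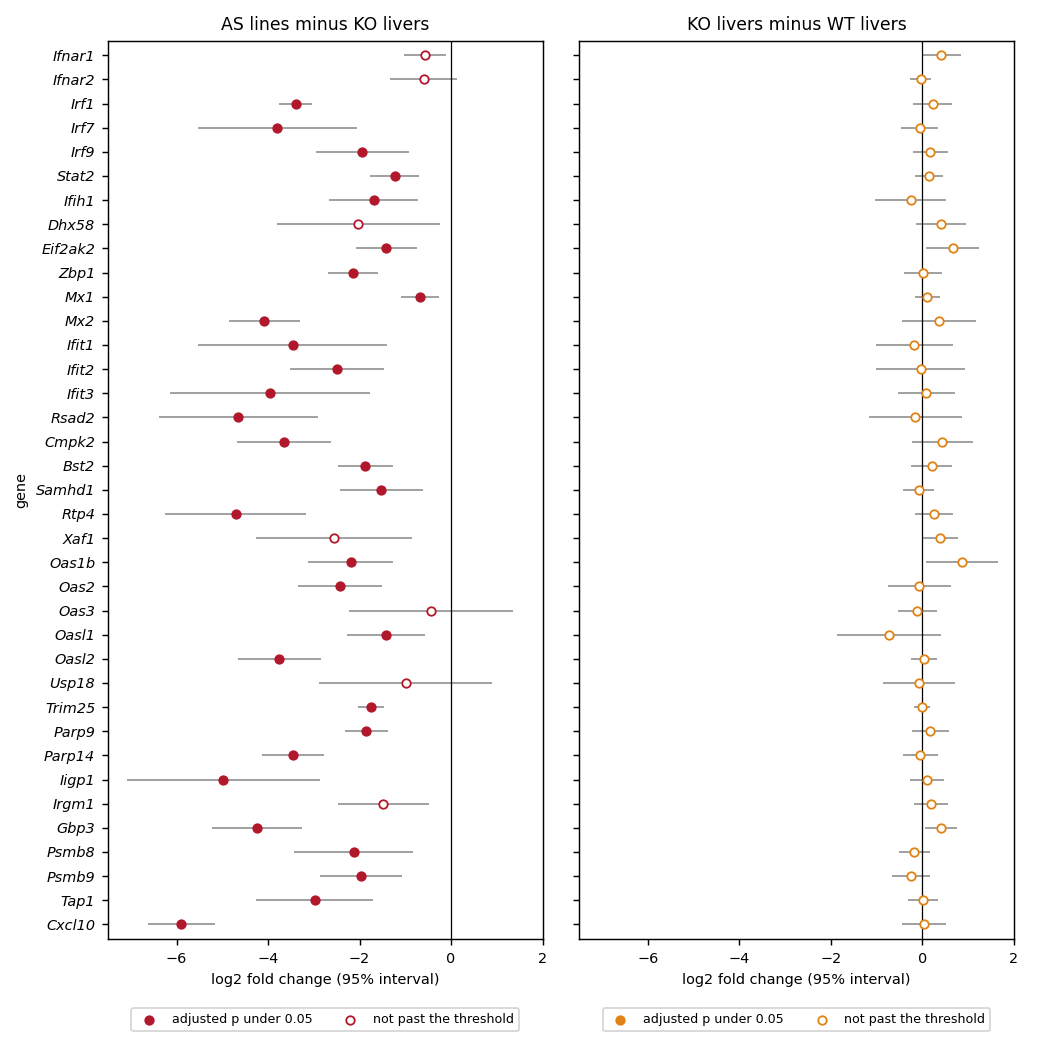
Log2 fold change (horizontal axis) of each of the 37 genes with its 95% interval from limma, for AS lines minus KO livers (left) and KO livers minus WT livers (right). Filled points have an adjusted p under 0.05: 30 on the left, all below 0, and 0 on the right, where the points lie between -0.73 and 0.87.

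Within the KO group, the animals differed. KO liver 3 was the highest of the 6 livers in 21 of 37 genes, against 19.8% of all genes, and the lowest in 0. KO liver 1 was the lowest in 17 of 37, against 14.6% of all genes, and the highest in 0. WT liver 1 was the highest in 8 of 37, Oasl1, Ifih1 and Rsad2 among them, and the lowest in 7 of 37, which is no more often than over all genes (21.9% and 26.1%). The mean of the 37 genes was 9.95, 10.22 and 10.47 in the KO livers and 10.26, 10.01 and 10.10 in the WT livers. The median SD of a gene between animals was 0.29 in the KO livers and 0.16 in the WT livers (n = 3 each), against 0.12 for all genes in either group.

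Oasl1, an OAS-like protein that restrains translation of Irf7, had the widest range among the livers. It stood at 9.70, 10.80 and 10.10 in the KO livers and at 11.77, 10.64 and 10.37 in the WT livers, and the range of 2.08 was set by WT liver 1 at the top and KO liver 1 at the bottom. Ifih1, the cytosolic sensor MDA5 that detects long double-stranded RNA such as poly(I:C), was at 9.98, 10.59 and 10.53 in the KO livers and at 11.24, 10.31 and 10.32 in the WT livers. Ifit1, which binds foreign RNA caps, was at 9.92, 10.61 and 10.98 in the KO livers and at 11.15, 10.31 and 10.57 in the WT livers. WT liver 1 was the highest and KO liver 1 the lowest array for both genes. Usp18, the protease that removes ISG15 and acts as a brake at the receptor, was at 9.47, 9.97 and 10.74 in the KO livers and at 10.07, 10.15 and 10.18 in the WT livers. The KO animals lay on both sides of the WT animals, and its SD of 0.64 among KO livers compared with 0.056 among WT livers (n = 3 each).

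The interferon ligand genes differed in level. The mean of the 9 measured was 6.05, 6.01 and 5.93 in the KO livers and 6.41, 6.37 and 6.37 in the WT livers, below the array medians of 6.96 to 7.17. Ifnl2, a type III interferon, and Ifna5, a type I interferon, were above those medians in all 6 livers. Ifnl2 was at 8.29, 8.23 and 8.10 in the KO livers and at 8.60, 8.58 and 8.44 in the WT livers. Ifna5 was at 7.79, 7.69 and 7.57 in the KO livers and at 8.08, 7.49 and 7.85 in the WT livers. The cultured AS lines had similar levels, with Ifnl2 at 8.13, 8.48 and 8.33 and Ifna5 at 7.33, 7.41 and 7.55. The part of probe background in these levels was not tested. Ifnb1, a type I interferon, was at 4.77, 4.77 and 4.71 in the KO livers and at 6.17, 4.67 and 4.70 in the WT livers, so that WT liver 1 stood apart. Ifna2 was likewise highest in WT liver 1, at 7.25, against at most 6.27 in the other 5 livers. Ifng, the type II interferon made by T and NK cells, was at 6.07, 6.12 and 6.19 in the KO livers and at 6.12, 8.79 and 8.79 in the WT livers (difference -1.78, SE 0.751, limma adjusted p = 0.237). WT livers 2 and 3, where Ifng was high, also had the higher mean of the T and NK cell list given above, with Cd3e at 9.76 and 9.75 in them and at most 7.65 in the other livers. The part of these cells in the Ifng level was not tested.

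**Figure D3:**
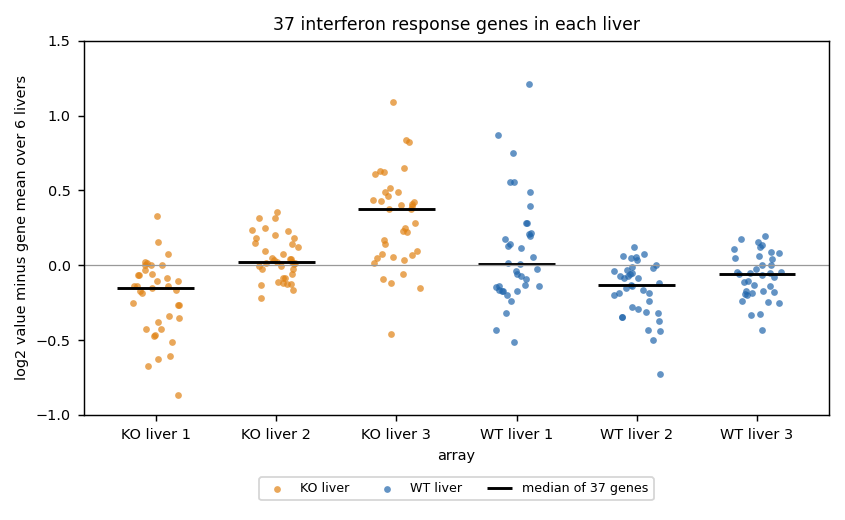
Each point is 1 of the 37 genes in 1 liver, as the log2 value minus the mean of that gene over the 6 livers, and the bar is the median of the 37 genes. The points of KO liver 3 lie mostly above 0 and those of KO liver 1 mostly below, while the highest single points are Oas1b in KO liver 3 and Oasl1 in WT liver 1.

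The AS lines, which share the Notch1 genotype of the KO livers, were compared with them to ask how far the response is seen in the cultured tumour cells. These genes were much lower in the lines. Each of the 37 log2 fold changes was negative, and their median was -2.15, against 0.05 over all genes, and 30 of 37 fell in limma at an adjusted p under 0.05, against 10.1% of all genes called lower. Of those, 29 fell by at least 2-fold, against 7.12% of all genes, and in 34 of 37 every line was below every KO liver, against 16.7% of all genes. Against the WT livers the median was -2.18, and 30 of 37 fell, against 11.1% of all genes. There 28 fell by at least 2-fold, against 7.84% of all genes, and in 32 of 37 the groups did not overlap, against 19.5% of all genes. Both comparisons share the AS lines, so they are not independent. The same 7 genes did not pass in either: Ifnar1, Ifnar2, Dhx58, Xaf1, Oas3, Usp18 and Irgm1. The shares over all genes include many dim genes. In a fit without genes whose mean over all arrays was below the median, 31 of 36 fell against the KO livers. There 1719 of 9969 genes were called lower. Against the WT livers the same fit gave 31 of 36, against 1763 of 9969 genes.

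The livers hold many cell types that the lines do not. Between the AS lines and the KO livers, 11 of 11 Kupffer cell and macrophage genes, 8 of 8 sinusoidal endothelial genes and 4 of 4 pan-leukocyte genes fell as well. Of 20 hepatocyte genes 4 fell and 0 rose at the adjusted threshold. Their log2 fold changes were negative in 17 and positive in 3, with a median of -2.38. Against the WT livers 11 of these 20 fell and 0 rose, with a median of -3.73. Genes of cholangiocytes, the cells of bile ducts, went the other way: 3 of 4 rose, and the list mean was 9.55 to 10.06 in the lines, against 6.01 to 6.08 in the KO livers and 6.58 to 6.95 in the WT livers. The mean of the Kupffer cell and macrophage list was 6.03 to 6.34 in the lines, against 11.35 to 11.92 in the KO livers and 11.30 to 11.88 in the WT livers. That of the pan-leukocyte list was 5.89 to 6.16 in the lines, against 9.75 to 10.31 in the KO livers and 10.30 to 10.63 in the WT livers. The part of these cell types in the lower interferon response genes was not tested, and in such bulk samples fewer cells of a type and less RNA per cell cannot be told apart. The mice behind the liver arrays had also been injected with poly(I:C), whereas the lines were kept in culture, and these differences cannot be told apart from that of tumour cells and liver.

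The receptor genes were among those that differed least. Ifnar1 was at 9.55, 9.98 and 9.74 in the lines, at 10.45, 10.01 and 10.52 in the KO livers and at 9.69, 10.04 and 10.02 in the WT livers. The lines overlapped the WT livers, and the difference from the KO livers was -0.57 (95% interval -1.03 to -0.11, limma adjusted p = 0.0866). Ifnar2 was at 10.62, 11.54 and 10.51 in the lines, at 11.41, 11.54 and 11.52 in the KO livers and at 11.69, 11.43 and 11.46 in the WT livers, with AS line 2 at liver level and the other 2 lines about 1 log2 unit below.

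The factors that carry the signal all fell. Irf1, induced by both interferon types, was at 9.19, 8.77 and 8.93 in the lines, at 12.18, 12.39 and 12.49 in the KO livers and at 12.46, 11.87 and 12.07 in the WT livers. The lines were close together and far below all 6 livers, with a log2 fold change against the KO livers of -3.39 (SE 0.145, limma adjusted p = 0.000168). With the mean of the 2 Irf1 probe sets, the log2 fold change against the KO livers was -2.58. Against the WT livers it was -3.17, and -2.11 with that mean. Irf7 was at 5.80, 8.50 and 6.73 in the lines, against the KO liver values of 10.58, 10.92 and 10.94 (log2 fold change -3.80, SE 0.691, limma adjusted p = 0.0166). AS line 2 stood well above the other lines and still below every liver. Irf9 and Stat2, the partners in the complex that binds response elements, also fell, with log2 fold changes of -1.94 (SE 0.403) and -1.23 (SE 0.213) against the KO livers.

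Among the sensors, Zbp1, a receptor for Z-form nucleic acid that can trigger cell death, was at 6.77, 6.75 and 7.25 in the lines, at 8.82, 9.43 and 8.98 in the KO livers and at 8.997, 9.02 and 9.18 in the WT livers. It fell by 2.15 against the KO livers (SE 0.219, limma adjusted p = 0.00272). Eif2ak2 was nearer to liver, at 8.45, 7.85 and 8.14 in the lines, with a log2 fold change of -1.42 against the KO livers (SE 0.267, limma adjusted p = 0.0185) and of -0.75 against the WT livers (SE 0.185, limma adjusted p = 0.0315). Dhx58, the RNA-binding sensor LGP2, was at 6.05, 8.55 and 6.36 in the lines, at 8.66, 8.95 and 9.44 in the KO livers and at 8.68, 8.38 and 8.76 in the WT livers. AS line 2 lay within the WT range, the other 2 lines lay more than 2 units below the WT mean, and the gene did not pass (limma adjusted p = 0.108 against the KO livers).

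Several antiviral effectors fell by more than 4 log2 units. Rsad2 was at 5.58, 8.07 and 6.15 in the lines, against the KO liver values of 10.85, 11.11 and 11.79 (log2 fold change -4.65, SE 0.694, limma adjusted p = 0.00900). Rtp4, an interferon-induced receptor-transporting protein, was at 5.63, 7.87 and 5.99 in the lines, at 11.04, 11.05 and 11.52 in the KO livers and at 11.09, 10.76 and 11.00 in the WT livers, and fell by 4.71 against the KO livers (SE 0.614, limma adjusted p = 0.00592). In both genes AS line 2 was the highest line by about 2 units and still about 3 units below the KO mean. Mx2, a dynamin-like GTPase, was at 4.71, 5.36 and 4.93 in the lines, at 8.52, 9.21 and 9.51 in the KO livers and at 9.18, 8.40 and 8.57 in the WT livers, and here the 3 lines lay together (log2 fold change -4.08 against the KO livers, SE 0.308, limma adjusted p = 0.000999). Mx1, whose promoter drives the Cre of the KO mice, was dim everywhere, at 4.999, 5.30 and 5.49 in the lines, at 5.75, 6.12 and 5.96 in the KO livers and at 5.94, 5.80 and 5.76 in the WT livers. All 9 values lay below their array's median, and C57BL/6 mice carry a deletion within this gene. Mx1 passed against both liver groups, with log2 fold changes of -0.68 against the KO livers (limma adjusted p = 0.0393) and -0.57 against the WT livers (limma adjusted p = 0.0354). The exact permutation test of Mx1 alone gave 2-sided p = 0.5 for KO against WT livers and p = 0.1 for the AS lines against either liver group, the smallest that 3 against 3 arrays allow. Samhd1, which depletes the nucleotides that viruses need, and Bst2, the tether that holds budding virus, stayed brighter in the lines, at 9.27 to 10.46 and 8.10 to 8.82, and fell as well, with log2 fold changes of -1.52 and -1.88 against the KO livers.

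In the oligoadenylate synthetase family, whose products activate an RNA-degrading enzyme, 4 of 5 genes fell against the KO livers. Their log2 fold changes were -3.76 for Oasl2 (SE 0.361), -2.43 for Oas2 (SE 0.364), -2.19 for Oas1b (SE 0.369) and -1.42 for Oasl1 (SE 0.342). Oas3 was the exception, at 5.95, 8.60 and 6.48 in the lines, at 7.15, 7.75 and 7.45 in the KO livers and at 7.72, 7.45 and 7.51 in the WT livers. AS line 2 was above every liver and the other 2 lines below every liver, so the mean difference of -0.44 against the KO livers (95% interval -2.23 to 1.35, limma adjusted p = 0.723) describes no single line. Oas1b and Oas2 have close relatives in the genome, and cross-hybridisation between them was not tested.

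The interferon-inducible GTPases attack the vacuoles in which microbes live. Iigp1 was at 4.96, 8.26 and 6.24 in the lines, at 11.31, 11.29 and 11.79 in the KO livers and at 11.37, 11.30 and 11.41 in the WT livers. It had the widest range between lines of the 37 genes, 3.29, against 0.49 among the 6 livers, and fell by 4.98 against the KO livers (SE 0.839, limma adjusted p = 0.0131). Gbp3 was at 5.33, 6.75 and 5.70 in the lines and fell by 4.24 (SE 0.392, limma adjusted p = 0.00199). Irgm1, a regulator of that family, was at 9.68, 10.27 and 11.17 in the lines and at 11.62, 11.80 and 12.14 in the KO livers. It was highest in AS line 3 and not in AS line 2, and its difference of -1.48 did not pass (SE 0.399, limma adjusted p = 0.0544).

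Of the remaining genes, Cxcl10 had the lowest fold change, at 8.20, 7.83 and 7.10 in the lines against the KO liver values of 13.45, 13.64 and 13.74 (log2 fold change -5.90, SE 0.292, limma adjusted p = 0.000254). Parp14 and Parp9, partner ADP-ribosyltransferases of the interferon response, fell, with log2 fold changes of -3.46 (SE 0.268) and -1.86 (SE 0.187) against the KO livers. Trim25 fell by 1.76 (SE 0.112). Psmb8 and Psmb9, catalytic subunits of the immunoproteasome that cuts peptides for antigen presentation, fell, with log2 fold changes of -2.13 (SE 0.514) and -1.97 (SE 0.354). Tap1, which pumps these peptides into the endoplasmic reticulum, was at 6.08, 8.07 and 7.26 in the lines, at 9.94, 10.13 and 10.28 in the KO livers and at 9.91, 10.11 and 10.29 in the WT livers, and fell by 2.98 against the KO livers (SE 0.509, limma adjusted p = 0.0136). Usp18 was at 8.43, 10.64 and 8.14 in the lines, with AS line 2 above all but the highest KO liver, and did not pass (difference from the KO livers -0.99, 95% interval -2.88 to 0.90, limma adjusted p = 0.426).

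Some calls of single genes depended on the alternative used. In 15 of 37 genes the fall against the KO livers passed under all 14 alternative fits, including the removal of each array, and these included Irf1, Mx2, Rsad2, Rtp4, Cxcl10 and Gbp3. The count of 30 was 17 without KO liver 1 and 17 without KO liver 3, with none of the 37 higher in either case. Over all 19938 genes the number called lower fell too, from 2007 to 1295 and 1287. Against the WT livers 20 of 37 passed under all 14 fits, and the count was 20 without WT liver 3. There the number over all genes went from 2209 to 1510. How many of all genes passed under every fit was not counted.

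**Figure D4:**
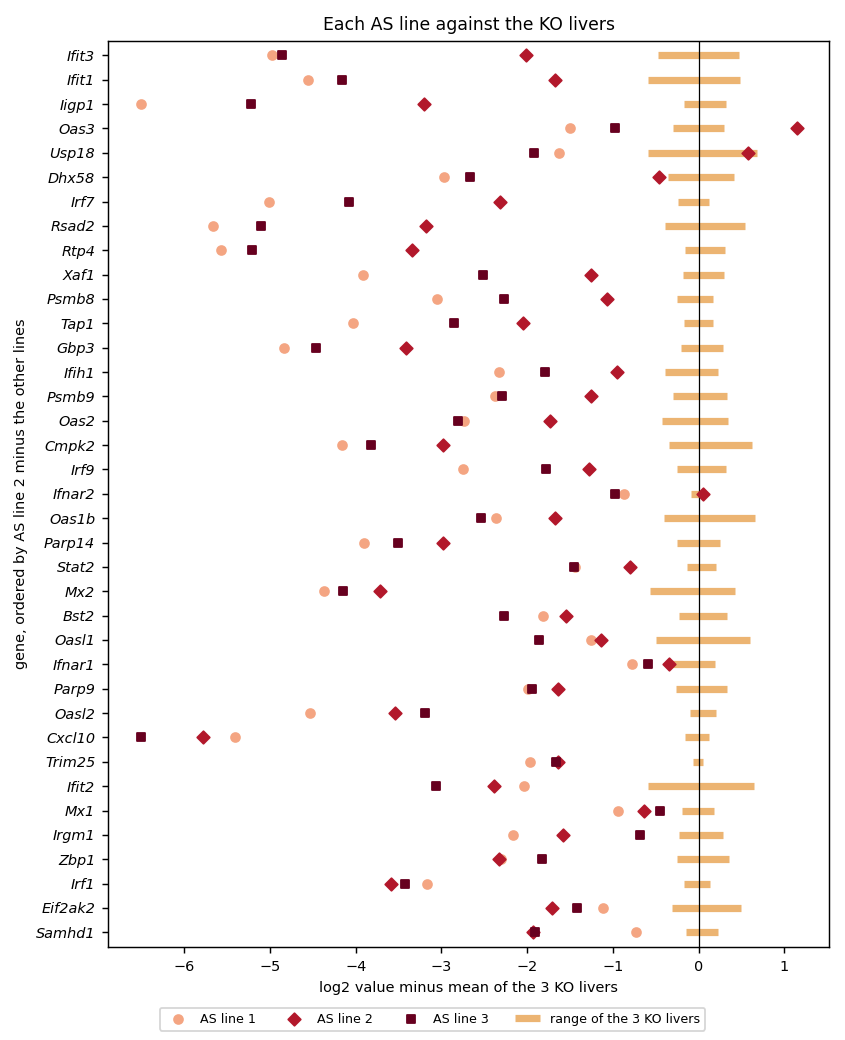
For each of the 37 genes, the log2 value of AS lines 1, 2 and 3 minus the mean of the 3 KO livers (horizontal axis), with the range of the KO livers as a bar. Genes are ordered by AS line 2 minus the mean of the other 2 lines, which is 2.90 for Ifit3 at the top and -0.61 for Samhd1 at the bottom.

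The 3 lines were not alike, and AS line 2 stood nearest to liver. It was the highest line in 28 of 37 genes, against 34.7% of all genes, and lay more than 1 log2 unit above the mean of the other 2 lines in 17 of 37, against 4.02% of all genes. The median over the 37 genes was 0.98 above the other 2 lines, against 0.02 over all genes. AS line 1 was the lowest line in 24 of 37, against 47.2% of all genes. Every one of the 37 genes in AS line 1 was below all 6 livers, as were 32 of 37 in AS line 2 and 36 of 37 in AS line 3, against 30.7%, 22.4% and 19.9% of all genes. The median SD between the lines was 0.63 for the 37 genes, against 0.19 for all genes (n = 3). With 1 array for each line, the difference between lines has no replicate and was not tested.

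In 9 genes AS line 2 was more than 2 log2 units above the mean of the others: Ifit3, Ifit1, Iigp1, Oas3, Usp18, Dhx58, Irf7, Rsad2 and Rtp4. Ifit3, a partner of IFIT1, was at 6.22, 9.19 and 6.34 in the lines, at 10.73, 11.20 and 11.68 in the KO livers and at 11.30, 11.00 and 11.05 in the WT livers. Ifit1 was at 5.95, 8.83 and 6.34 in the lines, which relative to the KO mean is -4.55, -1.67 and -4.16. Xaf1, an interferon-induced protein linked to cell death, was at 5.58, 8.24 and 6.98 in the lines, at 9.38, 9.31 and 9.79 in the KO livers and at 9.31, 8.96 and 9.06 in the WT livers, and passed in neither comparison (limma adjusted p = 0.0509 and 0.0562). Ifit2, next to these genes on chromosome 19, did not follow them: it was at 8.53, 8.17 and 7.50 in the lines, with AS line 1 the highest. Irf1, Eif2ak2, Zbp1, Samhd1 and Irgm1 were the 5 genes in which AS line 2 lay below the mean of the other lines.

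Hepatocyte genes moved with the same line. The mean of the 20 hepatocyte genes was 7.94, 9.89 and 7.84 in the lines, AS line 2 was the highest line in 19 of 20, and their median was 1.66 above the other 2 lines. Albumin (Alb), made by hepatocytes, was bright in all lines, at 12.31, 13.67 and 12.82, against 13.52, 13.86 and 12.14 in the KO livers and 13.84, 13.87 and 13.96 in the WT livers. The origin of this signal on the AS line arrays is not settled, which bears on every value of the lines given here, and its part in the higher interferon response genes of AS line 2 was not tested. Of the markers of other liver cells, Cdh5 was highest in AS line 2 by a small margin, at the values given above. Clec4f, a Kupffer cell lectin, was at 6.87, 6.82 and 7.37 in the lines and at least 11.67 in the livers. The list means of the lines were 6.21, 6.42 and 6.27 for pan-endothelial and 6.16, 6.33 and 6.15 for sinusoidal endothelial genes, both highest in AS line 2. That of the Kupffer cell and macrophage list was 6.03, 6.28 and 6.34, highest in AS line 3. Cxcl9, an interferon-induced chemokine that is bright in liver, was also highest in AS line 2, at 6.19, 7.28 and 6.48 in the lines and at or above 12.94 in all 6 livers. Without AS line 2, 30 of 37 genes fell against the KO livers, against 1752 of all 19938 genes. The median of the 37 was then -2.55, against 0.047 over all genes.

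Other genes of the pathway were counted from lists of ligands, receptors, relays, brakes, sensors, further interferon-stimulated genes, antigen presentation and chemokines. Of 133 listed names, 109 were measured. Between KO and WT livers 0 passed, with a median of 0.01, and at an unadjusted p under 0.05 there were 14 higher and 11 lower, together close to the 22.5% of all genes given above. Ccl5, a T cell chemokine, differed by -1.72 (SE 0.150, limma adjusted p = 0.0995) and was at 9.95, 10.45 and 10.28 in the KO livers and at 11.92, 12.09 and 11.82 in the WT livers. Tyk2, a kinase bound to IFNAR1, was 0.38 apart (SE 0.0723, limma adjusted p = 0.102), and Socs1, an inhibitor of the kinases, 0.67 (SE 0.215, limma adjusted p = 0.162).

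Between AS lines and KO livers, 61 of the 109 fell, against 10.1% of all genes, and 3 rose, against 11.4% of all genes, with a median of -1.03. Against the WT livers 65 fell, against 11.1% of all genes, and 4 rose, against 17.6% of all genes, with a median of -0.96. Jak1, the other receptor kinase, was at 10.76, 10.90 and 11.20 in the lines and fell by 1.79 against the KO livers (SE 0.130, limma adjusted p = 0.000861). Irf8, a factor of myeloid cells, had a log2 fold change of -5.14 (SE 0.107), Cxcl9 one of -6.57 (SE 0.292) and Sting1, the adaptor of cytosolic DNA sensing, one of -4.86 (SE 0.377). Socs3 and Socs1, both brakes, fell too, with log2 fold changes of -3.26 (SE 0.194) and -2.46 (SE 0.212). The 3 genes that rose were Ifnlr1, Ifngr1 and Mov10, with Ikbke added against the WT livers. Ifnlr1, the receptor chain for type III interferon that is typical of epithelial cells, was at 7.87, 7.92 and 7.96 in the lines, at 5.90, 5.65 and 5.70 in the KO livers and at 5.84, 5.88 and 6.00 in the WT livers (log2 fold change 2.17 against the KO livers, SE 0.0902, limma adjusted p = 0.000156). The 3 lines lay close together, above all 6 livers. In these further genes AS line 2 was the highest line in 52 of 109, against 34.7% of all genes, the median over them was 0.12 above the other lines, and 9 of 109 lay more than 1 unit above, against 4.02% of all genes. Of those 9, Trim30a, Aim2 and Gbp7, singled out after their values were seen, were at 5.01, 9.42 and 6.21, at 5.67, 8.68 and 5.78 and at 5.41, 8.40 and 5.90 in the lines.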

How the data were processed

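Each of 9 mouse samples was measured on 1 whole-transcript array. The authors deposited a table of log2 values, 1 for each probe set, and RMA and the oligo package are named in the submitters' processing notes without versions. It has 35556 probe sets and no missing value, of which 21789 have 1 gene in the platform annotation, and the brightest by mean over all arrays was used for each of 19938 genes. No detection calls come with it: low values may be background, and folds against them are then too small.

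In limma 3.58.1 (R 4.3.3; lmFit, eBayes, 2-sided) the 6 arrays of a comparison were fitted by group alone, and p-values were adjusted by Benjamini-Hochberg across 19938 genes. Lists were described by counts and medians. The procedure was tested on simulated data. The members, lists and the alternatives were chosen with earlier results of these data known. All 37 measured genes may be named. Values in each array are given for some, not all, of the genes past the threshold, of largest change in their role, or wide range. The same holds for the 3 largest changes in each further list. Replicate numbers were not used to pair the samples. Deviations of same-numbered arrays correlated from -0.39 to 0.43 and those of different-numbered arrays from -0.48 to 0.47. With 3 arrays in a group, these values cannot decide if a pairing exists. Figures were drawn with matplotlib 3.10.9.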

Additional observations from a re-analysis of the deposited data

Results flagged for a closer look

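Irf1 has a second, dimmer probe set that the comparisons did not use. It stood at 8.56, 9.06 and 8.22 in the KO livers and at 7.66, 7.91 and 8.12 in the WT livers. Every KO liver was thus above every WT liver, with a difference of means of 0.72. The separation was narrow, since the lowest KO value was 8.22 and the highest WT value 8.12. The KO and WT livers likewise did not overlap, in either direction, in 30.3% of all genes. The brighter probe set of Irf1 overlapped between the genotypes. In the AS lines the dimmer probe set was at 6.70, 6.49 and 7.36.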

How the results depend on the processing

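Alternatives changed the samples fitted, the replicate block, the moderation, the dim genes, the scaling, the choice of probe sets, the array weights and the threshold, left out each array or, for the livers, added a hepatocyte covariate. Between KO and WT livers 0 of 37 genes passed except with array weights, where 4 did (Ifnar1, Eif2ak2, Xaf1 and Oas1b, all higher), against 28.8% of all genes. Scaling to the 75th percentile gave a median of -0.18 for all genes there and of -0.15 for the 37. Cxcl10 changed sign with that scaling (-0.15), with the hepatocyte covariate (-0.076) and without WT liver 2 (-0.055), WT liver 3 (-0.081) or KO liver 3 (-0.028), over a leave-one-out range of -0.081 to 0.24, Parp9 with that scaling (-0.0043) and Usp18 without KO liver 1 (0.225, range -0.41 to 0.225). For AS lines against KO livers, leaving out 1 array gave 17 to 30 of 37 genes, all lower, with 17 without KO liver 1 or 3. Over all 19938 genes, 1287 to 1807 were then called lower. Oas3 changed sign without AS line 1 (0.086, range -1.23 to 0.086). For AS lines against WT livers, leaving out 1 array gave 20 to 32 of 37, against 1466 to 2099 of all genes called lower. Without KO liver 2, 9.78% of all genes but 0 of the 37 passed between the livers. With the replicate block, which the labels do not call for, 29 and 26 of 37 fell against the KO and WT livers. The numbers called lower over all genes were 1709 and 1910, and 0 of 37 passed between the livers. The cause of these changes was not tested.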
